A study of Mus musculus with 4 samples.

Results

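The 10 genes described here handle iron in the liver: Hamp, Hfe, Tfr2, Tfrc, Trf, Fth1, Ftl1, Slc40a1, Cp and Bmp6. They were taken by name from the 21938 protein-coding genes of the GENCODE vM21 annotation on chromosomes 1 to 19, X and Y, and all 10 were found. For each gene, every deposited peak was collected that overlapped the gene or the 10 kb on either side of its transcription start site (TSS), the 5' end of the annotated gene. Peak positions are given from the TSS in the direction of transcription, negative upstream, by the summit for H2A.Z and by the centre for ATACseq.

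The data were 4 genome-wide libraries from livers of male C57Bl/6 mice aged 8 to 12 weeks on normal diet. WT was Uhrf1-fl/fl without Cre. Uhrf1hepKO was Uhrf1-fl/fl;Alb:Cre, in which Cre is driven by the albumin promoter that is active in hepatocytes. The extent of the deletion in each cell type was not measured here. Both genotypes carried the floxed alleles. Uhrf1 encodes a protein needed to maintain DNA methylation through cell division. Each genotype had 1 ATACseq library, which marks chromatin open to a transposase. It also had 1 ChIPseq library for H2A.Z, a histone variant found in nucleosomes beside start sites and enhancers, recovered after micrococcal nuclease digestion. Whether both libraries of a genotype came from 1 animal was not established. With 1 library for each genotype and assay, no difference between genotypes had a replicate check, and none was tested. The tissue was whole liver, so a peak carried by fewer cells and a weaker peak in every cell cannot be told apart.

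The lists held 10582 (WT) and 10764 (Uhrf1hepKO) ATACseq peaks and 51450 (WT) and 47135 (Uhrf1hepKO) H2A.Z peaks on these chromosomes. The files give no read totals, so depth is unknown for ATACseq. For H2A.Z, fold and p-value together fixed the whole number of reads at each summit, with a usual background of 3.10 reads in WT and 3.30 in Uhrf1hepKO. The lowest summits called at that background had 11 and 12 reads. Uhrf1 itself had 1 peak within 1 kb of its TSS in each of the 4 lists, and a peak list does not measure the deletion. Marker genes of liver cell types were looked up in the same way. Of 7 hepatocyte markers, 0, 1, 0 and 0 had a peak within 1 kb of the TSS in WT ATACseq, Uhrf1hepKO ATACseq, WT H2A.Z and Uhrf1hepKO H2A.Z. The 1 was Alb, at fold 4.18. Kupffer cell and liver endothelial markers had 0 of 7 each in all 4 lists, cholangiocyte markers had 1, 0, 2 and 2 of 5 in the same order, and stellate cell markers 0, 0, 1 and 0 of 6. Hepatocyte markers were thus nearly without promoter peaks, and these lists do not identify the tissue by them, and the part of cell composition in the values below was not tested.

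Iron in blood is carried by transferrin (Trf) and enters cells through transferrin receptor 1 (Tfrc). Hepatocytes sense iron load through the transferrin receptor 2 (Tfr2) and Hfe proteins and through Bmp6, a ligand made mainly by liver endothelial cells that activates SMAD proteins. These inputs set the transcription of Hamp, which encodes the hormone hepcidin, and hepcidin causes the iron exporter ferroportin (Slc40a1) to be degraded. Iron is stored in ferritin, built from heavy (Fth1) and light (Ftl1) chains, and ceruloplasmin (Cp) oxidises exported iron so that transferrin can bind it.

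The 247 bases upstream of Hamp, chr7:30944033-30944279 in GRCm38 on the minus strand, are shown because no list had a peak there. Capitals mark the letters of a SMAD core of BMP-responsive elements (GGCGCC, starting at -109 from the RefSeq start) and of a STAT core (TTCNNNGAA, starting at -97).
Hamp upstream: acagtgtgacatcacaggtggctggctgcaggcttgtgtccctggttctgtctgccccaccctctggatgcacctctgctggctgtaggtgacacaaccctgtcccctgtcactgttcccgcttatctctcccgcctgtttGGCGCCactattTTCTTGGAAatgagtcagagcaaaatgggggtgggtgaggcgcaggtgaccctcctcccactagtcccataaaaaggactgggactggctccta
Among 32851 RefSeq promoter windows of 250 bases before to 50 after the start, searched on both strands, GGCGCC occurred in 11.9% and TTCNNNGAA in 8.30%.

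The sites on which the other results turn are given below from the same build, on the strand of the gene, with every CpG in capitals. The Tfrc site had the highest ATACseq fold at these genes in the Uhrf1hepKO list, and the Cp site the highest in WT. The WT interval is shown for both, and the Uhrf1hepKO interval at Tfrc had 19 CpGs in 155 bases. The WT intervals differed in CpG content, with 24 CpGs in 213 bases at Tfrc and 2 in 241 at Cp. They lie at chr16:32608697-32608909 (plus strand) and chr3:19953974-19954214 (plus strand).
Tfrc, ATACseq peak at -117 bp, WT: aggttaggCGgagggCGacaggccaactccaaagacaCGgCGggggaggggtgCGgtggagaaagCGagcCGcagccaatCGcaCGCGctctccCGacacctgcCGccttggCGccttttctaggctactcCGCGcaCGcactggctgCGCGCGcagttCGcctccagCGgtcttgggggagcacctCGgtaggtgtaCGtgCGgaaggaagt
Cp, ATACseq peak at -2960 bp, WT: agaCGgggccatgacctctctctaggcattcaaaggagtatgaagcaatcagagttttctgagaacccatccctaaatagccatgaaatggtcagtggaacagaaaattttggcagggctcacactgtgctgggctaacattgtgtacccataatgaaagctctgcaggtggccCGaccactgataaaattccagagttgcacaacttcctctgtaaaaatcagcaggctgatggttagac
The H2A.Z peaks shown next are the promoter peak of Tfr2 (chr5:137569588-137569693, plus strand), called in both genotypes, the Hfe site with the largest difference in summit reads (chr13:23714635-23714915, minus strand), and the Ftl1 site called in WT only with the most reads (chr7:45461289-45461429, minus strand).
Tfr2, H2A.Z peak at -189 bp, WT: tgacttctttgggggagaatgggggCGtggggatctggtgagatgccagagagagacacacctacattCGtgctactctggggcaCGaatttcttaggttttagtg
Hfe, H2A.Z peak at -3837 bp, WT: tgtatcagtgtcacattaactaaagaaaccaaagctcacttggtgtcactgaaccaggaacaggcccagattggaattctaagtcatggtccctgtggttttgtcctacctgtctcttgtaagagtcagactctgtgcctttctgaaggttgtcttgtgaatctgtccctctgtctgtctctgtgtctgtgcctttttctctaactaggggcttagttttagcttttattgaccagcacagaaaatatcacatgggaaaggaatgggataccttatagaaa
Ftl1, H2A.Z peak at -1478 bp, WT: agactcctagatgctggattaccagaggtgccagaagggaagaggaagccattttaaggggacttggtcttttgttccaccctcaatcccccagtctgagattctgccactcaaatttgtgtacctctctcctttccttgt
The last 3 are sites called in a single genotype, shown because the 2 lists of an assay differ there: the intron ATACseq sites of Tfr2 (chr5:137580330-137580484, plus strand) and Bmp6 (chr13:38496862-38496981, plus strand) and the H2A.Z site upstream of Trf (chr9:103235033-103235160, minus strand).
Tfr2, ATACseq peak at 10567 bp, WT: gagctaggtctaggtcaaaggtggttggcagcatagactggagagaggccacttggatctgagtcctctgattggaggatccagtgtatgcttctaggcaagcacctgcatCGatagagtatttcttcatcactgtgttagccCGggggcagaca
Bmp6, ATACseq peak at 151815 bp, Uhrf1hepKO: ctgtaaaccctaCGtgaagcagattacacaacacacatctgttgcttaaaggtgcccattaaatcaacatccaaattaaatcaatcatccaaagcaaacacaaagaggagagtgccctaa
Trf, H2A.Z peak at -4665 bp, Uhrf1hepKO: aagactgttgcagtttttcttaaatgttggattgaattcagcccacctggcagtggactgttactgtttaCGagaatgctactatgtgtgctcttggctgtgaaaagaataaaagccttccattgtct

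Across the 10 genes there were 6 ATACseq peaks in each genotype, 18 H2A.Z peaks in WT and 15 in Uhrf1hepKO. A peak in the gene or within 10 kb was present at 6 genes in WT ATACseq (39.2% of all protein-coding genes), at 6 in Uhrf1hepKO ATACseq (37.7%), at 7 in WT H2A.Z (64.3%) and at 6 in Uhrf1hepKO H2A.Z (62.4%). Within 1 kb of the TSS the counts were 1 gene in WT ATACseq (26.4% of all protein-coding genes), 2 in Uhrf1hepKO ATACseq (24.1%), 4 in WT H2A.Z (46.0%) and 4 in Uhrf1hepKO H2A.Z (44.5%). Hamp was the only member with no peak in any list. By the annotated 5' end, Tfrc was the only member with peaks of both assays within 1 kb of the TSS in both genotypes. With the TSS of any annotated transcript, Fth1 also had them.

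**Figure D1:**
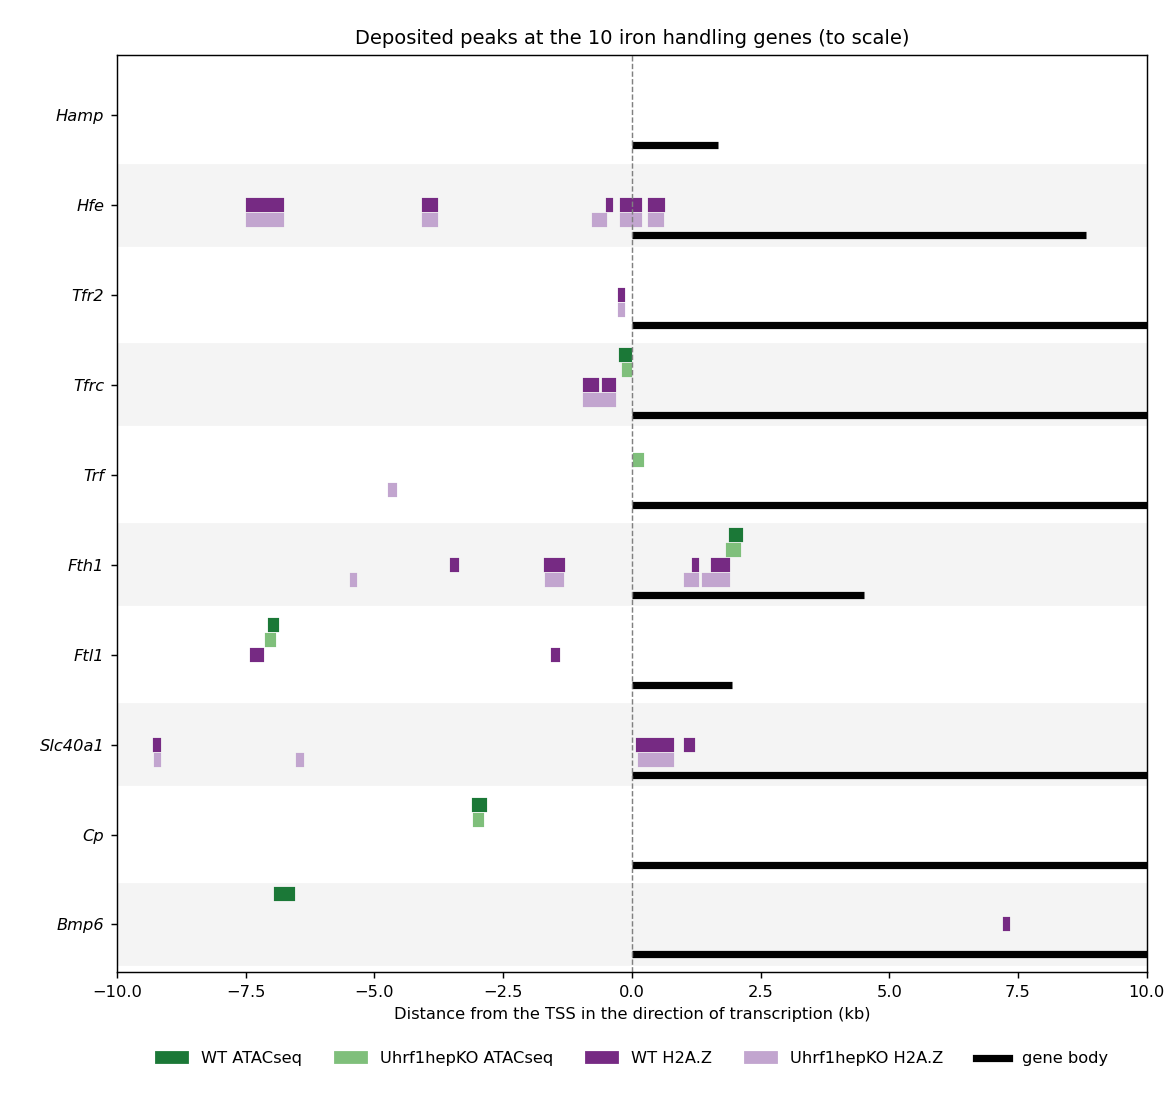
Peaks of the 4 lists (rows of each gene, in the order of the legend) drawn to scale by distance from the TSS in kb, with the gene body in black. H2A.Z sites cluster at Hfe, Fth1 and Slc40a1, Hamp is empty, and 2 ATACseq peaks further out are not drawn (Tfr2 at 10567 bp in WT and Bmp6 at 151815 bp in Uhrf1hepKO).

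Genes with a peak in a single genotype were counted beside the share of all protein-coding genes. For ATACseq, 1 member had a peak in WT only (Tfr2; 8.74% of all protein-coding genes) and 1 in Uhrf1hepKO only (Trf; 7.21%), while Bmp6 had a different peak in each. For H2A.Z, 2 members had a peak in WT only (Ftl1 and Bmp6; 4.54%) and 1 in Uhrf1hepKO only (Trf; 2.62%). Counted by peak, 4 of 6 WT ATACseq peaks at the members overlapped a Uhrf1hepKO peak by at least 1 bp (61.3% of the whole list) and 4 of 6 in the other direction (60.3%). For H2A.Z, 12 of 18 WT peaks overlapped a Uhrf1hepKO peak (70.0% of the list) and 11 of 15 in the other direction (75.6%). These shares of peaks lie within 10 percentage points of those of the whole lists.

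Hamp (chr7:30942368-30944032, minus strand) had no peak of either assay in the gene or within 10 kb. The nearest peaks to its TSS began 30031 bp away in WT ATACseq, 11998 bp in Uhrf1hepKO ATACseq, 13425 bp in WT H2A.Z and 13416 bp in Uhrf1hepKO H2A.Z. All 4 of these lay upstream. Its TSS had 8 CpGs within 500 bp, against a median of 41 over all protein-coding genes. Part of the sequence recurs elsewhere in the genome: 39.1% of the 32-base words within 1 kb of the Hamp TSS had another exact copy. Reads were longer than these words, and the part of this in the missing peaks was not tested.

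Hfe (chr13:23702034-23710854, minus strand), which encodes a membrane protein that binds transferrin receptor 1, carried 5 H2A.Z peaks in each genotype, the most of any member, and no ATACseq peak. The peak over its TSS ran from 23710677 to 23711058 in WT, with 24 reads at the summit, and from 23710680 to 23711069 in Uhrf1hepKO, with 21. A second shared peak in an intron had its summit at 393 bp in WT (26 reads) and 555 bp in Uhrf1hepKO (23 reads). Each genotype had a further small peak upstream of the TSS and within 1 kb of it, with 17 reads at -442 bp in WT and 16 reads at -538 bp in Uhrf1hepKO. The gap between these 2 intervals was 29 bp, so they counted as single-genotype peaks although they were neighbours.

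A pair of shared upstream sites completed the Hfe pattern, and both are intergenic. At -3837 bp the WT summit had 20 reads and the Uhrf1hepKO summit 33, and the summits were 9 bp apart. This was the largest difference at any shared site of the 10 genes, a log2 ratio of background-scaled reads (Uhrf1hepKO over WT) of 0.63, with an exact 95% interval for counting error of -0.21 to 1.51. At -7259 bp the WT summit had 33 reads, and the Uhrf1hepKO peak over the same interval had 29 reads. In that peak 67.9% of the WT bases are repeat-masked and 39.0% of its 32-base words recur elsewhere.

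Tfr2 (chr5:137569840-137587481, plus strand), the iron-sensing receptor of hepatocytes, had 1 H2A.Z peak in each genotype, just upstream of the TSS at -189 bp in WT and -202 bp in Uhrf1hepKO. The summits had 20 and 22 reads, a log2 ratio of 0.05 (interval -0.89 to 0.997). No ATACseq peak lay at the promoter. An ATACseq peak with fold 4.37 was called in WT alone in an intron at 10567 bp, and the nearest Uhrf1hepKO peak was 20198 bp away. Of the WT ATACseq peaks with at least that fold, 18.9% had no overlap in the Uhrf1hepKO list.

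Tfrc (chr16:32608920-32632794, plus strand) had the most CpG-rich promoter of the 10 genes, with 80 CpGs within 500 bp of the TSS. An ATACseq peak lay directly before the start in both genotypes, at -117 bp with fold 4.68 in WT and at -99 bp with fold 5.45 in Uhrf1hepKO. These folds are means over peaks of 213 and 155 bp and are not scaled between libraries, so they stand side by side as descriptions. H2A.Z lay further upstream. WT had 2 peaks, at -716 bp (19 reads) and -494 bp (16 reads), and Uhrf1hepKO had a single peak of 616 bp across both, with 27 reads at -729 bp. For the paired summits the log2 ratio was 0.42 (interval -0.48 to 1.35). The ATACseq and H2A.Z intervals did not overlap and were 104 bp apart in WT and 144 bp apart in Uhrf1hepKO. The letters GGCGCC lie within this ATACseq peak, at -89 from the RefSeq start.

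Trf (chr9:103204001-103230444, minus strand), the plasma carrier made by hepatocytes, had no peak of either assay in WT within 10 kb of its TSS or in the gene. In Uhrf1hepKO an ATACseq peak of 171 bp with fold 3.76 was called in an exon at 135 bp (chr9:103230224-103230394), over the start of other annotated Trf transcripts and 2 bp from the start of the overlapping gene Gm20425. The whole interval is annotated as untranslated region, so its sequence is not shown. The nearest WT ATACseq peak was 10916 bp away. The fold was below the Uhrf1hepKO median of 4.05, and of the Uhrf1hepKO peaks with at least this fold 26.3% had no overlap in WT. The second site was the H2A.Z peak at -4665 bp, with 18 reads (95% Poisson interval 10.7 to 28.4), against 11 reads for the lowest summit called in WT. The nearest WT H2A.Z peak was 33222 bp away. Of the 38611 Uhrf1hepKO H2A.Z peaks with at least 18 reads, 17.4% had no overlap in WT.

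**Figure D2:**
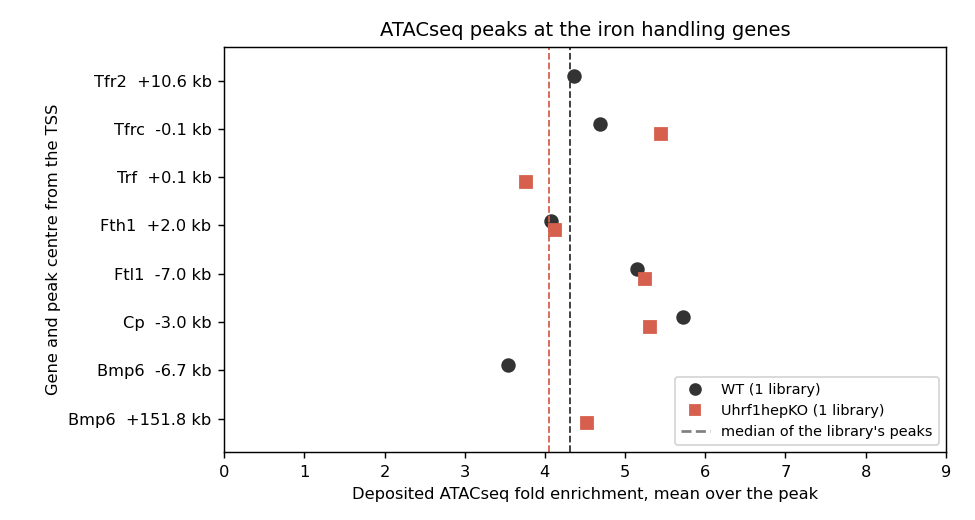
Deposited ATACseq fold enrichment (mean over the peak) for the 8 ATACseq sites, circles WT and squares Uhrf1hepKO, with dashed lines at the median fold of each list (4.31 and 4.05). The 4 shared sites have both symbols, and the single-genotype sites of Trf and Bmp6 (WT) lie below the median of their list.

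Fth1 (chr19:9980598-9985098, plus strand) begins in the annotation with a coding transcript that starts 2048 bp before the next one. Only 7 CpGs lie within 500 bp of the annotated 5' end, the fewest of the 10 genes, and no peak lay within 1 kb of it. The ATACseq peak lay at the downstream start. It covered a transcript start in both genotypes, with its centre at 2024 bp and fold 4.07 in WT and at 1980 bp and fold 4.12 in Uhrf1hepKO. It held 26 CpGs in each genotype. With the TSS of any annotated transcript used, Fth1 therefore joins the genes with a promoter peak in all 4 lists.

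H2A.Z flanked that open site on its upstream side. The highest summit of WT at the 10 genes was at 1808 bp with 35 reads, against 29 reads at 1770 bp in Uhrf1hepKO (log2 ratio -0.36, interval -1.12 to 0.39). The WT interval ended 16 bp before the ATACseq peak, while the Uhrf1hepKO interval overlapped it. A weaker shared site had 15 reads at 1220 bp in WT and 16 reads at 1097 bp in Uhrf1hepKO. Upstream of the annotated 5' end a shared intergenic site had 32 reads at -1601 bp in WT and 33 at -1565 bp in Uhrf1hepKO. There was 1 single-genotype peak each way, with 18 reads at -3456 bp in WT and 17 reads at -5388 bp in Uhrf1hepKO. In the Uhrf1hepKO peak at -5388 bp 37 of 74 32-base words have another copy, and in the other Fth1 peaks 0 do.

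Ftl1 (chr7:45457944-45459884, minus strand) had 48 CpGs within 500 bp of its TSS and no peak of either assay within 1 kb of it. Its H2A.Z peak at -1478 bp was called in WT with 26 reads (95% Poisson interval 17.0 to 38.1), while the nearest Uhrf1hepKO H2A.Z peak was 25895 bp away. The lowest summit called in Uhrf1hepKO had 12 reads. This was the single-genotype site with the most reads at the 10 genes and is singled out for that. Of the 14566 WT peaks with at least 26 reads, 2.85% had no overlap in Uhrf1hepKO. Shares at the read counts of the other single-genotype sites are given below, and no difference was tested. The peak at -1478 bp holds 0 CpGs, 29.1% of it is repeat-masked, and 0 of its 32-base words recur elsewhere. The remaining peaks of the Ftl1 window belonged by position to Bax, a cell death gene. They were an ATACseq peak called in both genotypes (fold 5.15 in WT and 5.24 in Uhrf1hepKO), 59 and 2 bp from the Bax TSS, and a WT H2A.Z peak with 19 reads, 187 bp from it. At Ftl1 itself 35.6% of the 32-base words of the gene recur elsewhere, as do 18.5% of those within 1 kb of the TSS, and the part of this in the missing promoter peak was not tested.

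Slc40a1 (chr1:45908068-45926523, minus strand), the iron exporter, had H2A.Z peaks near its TSS in both genotypes and no ATACseq peak. The ATACseq peak nearest to its TSS was 130744 bp away in WT and 131052 bp away in Uhrf1hepKO. The shared promoter peak was wide, 696 bp in WT and 673 bp in Uhrf1hepKO, with summits of 31 reads at 567 bp and 36 reads at 725 bp (log2 ratio 0.13, interval -0.61 to 0.87). The annotated transcript start nearest to these summits lies further into the gene, and from it they were at -347 and -189 bp. The 36 reads were the most of any Uhrf1hepKO site at the 10 genes. WT had a further peak of 15 reads at 1060 bp, 119 bp past its nearest annotated transcript start and 219 bp from the nearest Uhrf1hepKO peak. Far upstream, a shared site had 20 reads at -9207 bp in WT and 19 at -9230 bp in Uhrf1hepKO, and Uhrf1hepKO alone had a peak of 17 reads at -6432 bp.

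Cp (chr3:19957054-20009145, plus strand) had peaks of the assay that Slc40a1 lacked. It had an ATACseq peak upstream in both genotypes, at -2960 bp in WT and at -2980 bp in Uhrf1hepKO, with fold 5.73 and 5.32, at the 85.2 and 83.4 percentiles of their lists. No H2A.Z peak lay in its 62092 bp window, and the nearest to its TSS were 61587 bp away in WT and 62012 bp in Uhrf1hepKO. The TSS had 9 CpGs within 500 bp and no peak of either assay within 1 kb.

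Bmp6 (chr13:38345107-38500302, plus strand), the longest member at 155196 bp, had 3 peaks, each called in a single genotype, and none near its TSS although that start had 69 CpGs within 500 bp. The WT ATACseq peak at -6741 bp had fold 3.54 and q-value 0.062, lay wholly in repeat-masked sequence and had recurring copies for 79.5% of its 32-base words. The Uhrf1hepKO ATACseq peak at 151815 bp had fold 4.52 and lay in the last part of the gene, in an intron. The nearest protein-coding start to it was that of Txndc5, 31902 bp away. The WT H2A.Z peak at 7287 bp, also in an intron, had 18 reads. Of the WT ATACseq peaks with at least fold 3.54, 36.5% had no Uhrf1hepKO overlap, and of the Uhrf1hepKO peaks with at least fold 4.52, 16.0% had no WT overlap.

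Over the 11 paired H2A.Z sites of the 10 genes, the median log2 ratio of background-scaled summit reads was -0.05 (range -0.36 to 0.63), with 5 sites higher and 6 lower in Uhrf1hepKO. Over all 34183 paired sites of the genome the median was 0.00, 90% of ratios lay between -0.48 and 0.49, and 50.4% were higher in Uhrf1hepKO. The exact counting interval included no difference at each of the 11 sites, and the median counting error of a single ratio was 0.41 on the log2 scale. At this depth, none of the 11 ratios could be told apart from no difference by counting error. Only sites called in both lists enter these ratios. Sites called in a single genotype had 15 to 26 reads in the 6 WT sites and 16 to 18 in the 4 Uhrf1hepKO sites, against 15 to 35 and 16 to 36 over all sites of each genotype. Of all WT peaks with at least 15, 17, 18 and 19 reads, 26.2%, 21.5%, 18.5% and 15.5% had no overlap in Uhrf1hepKO. Of all Uhrf1hepKO peaks with at least 16, 17 and 18 reads, 21.2%, 19.4% and 17.4% had no overlap in WT.

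**Figure D3:**
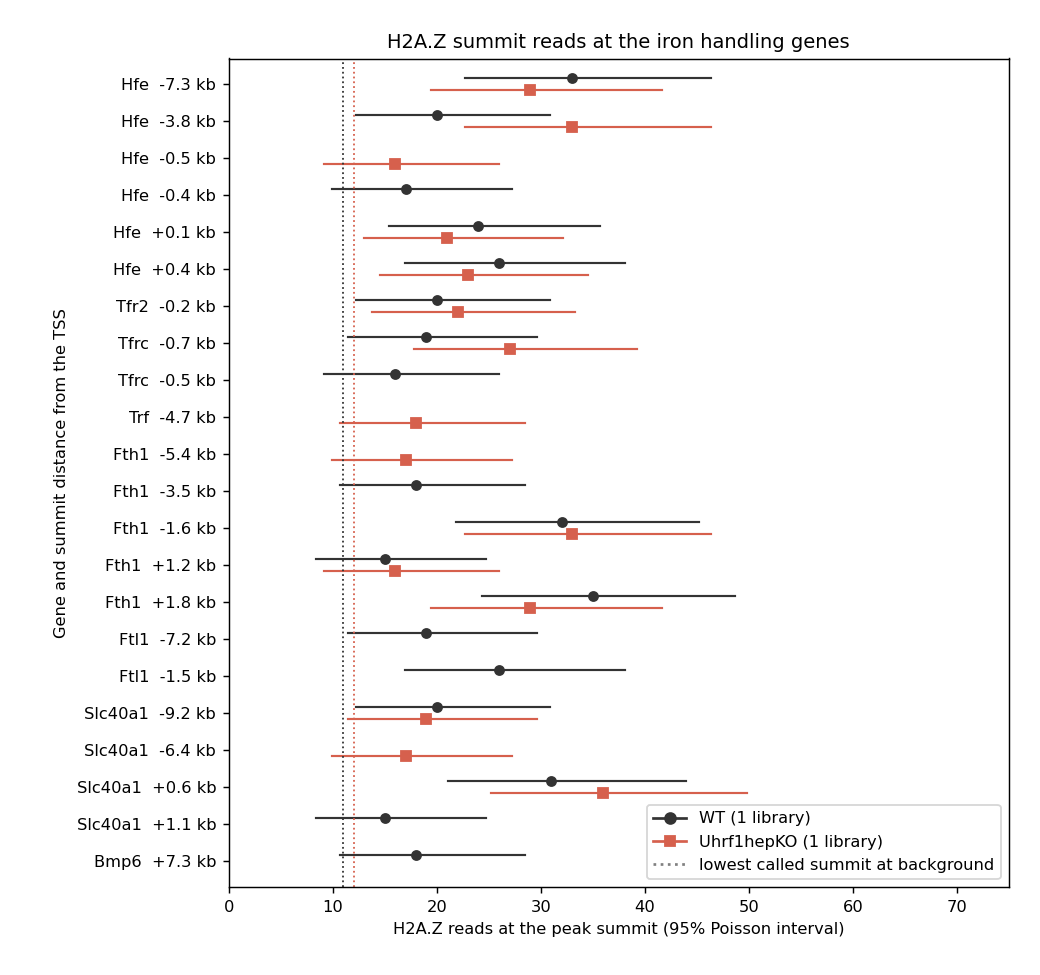
H2A.Z reads at the summit (x axis) for each site of the 10 genes (y axis, summit position from the TSS), circles WT and squares Uhrf1hepKO, with 95% Poisson intervals for counting error and dotted lines at the lowest summit called at background (11 and 12 reads). Intervals of the 2 genotypes overlap at all 11 paired sites, and the Ftl1 site at -1478 bp has the most reads among sites with 1 symbol.

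Promoter peaks were also set beside CpG content. Of all protein-coding genes with fewer than 30 CpGs within 500 bp of the TSS, 13.6% had a WT H2A.Z promoter peak and 4.27% a WT ATACseq promoter peak. Among the 6 members below 30 CpGs, 3 (Hfe, Tfr2 and Slc40a1) had the H2A.Z peak and 0 the ATACseq peak, and the counts were the same in Uhrf1hepKO (12.9% and 4.18% of all such genes). Fth1 is in this class only by its annotated 5' end. The RefSeq window at its downstream start, at 2048 bp, held 27 CpGs, and the ATACseq peak of both genotypes lay there. Of the genes with 30 CpGs or more, 70.1% had a WT H2A.Z promoter peak and 42.7% a WT ATACseq one. In Uhrf1hepKO the shares were 67.9% and 38.8%. Among the 4 members in that class, 1 (Tfrc) had an H2A.Z promoter peak in each genotype. An ATACseq promoter peak was present at 1 (Tfrc) in WT and at 2 (Tfrc and Trf) in Uhrf1hepKO, and Ftl1 and Bmp6 had neither assay in either genotype. These are counts over few genes, and no test was run on them.

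**Figure D4:**
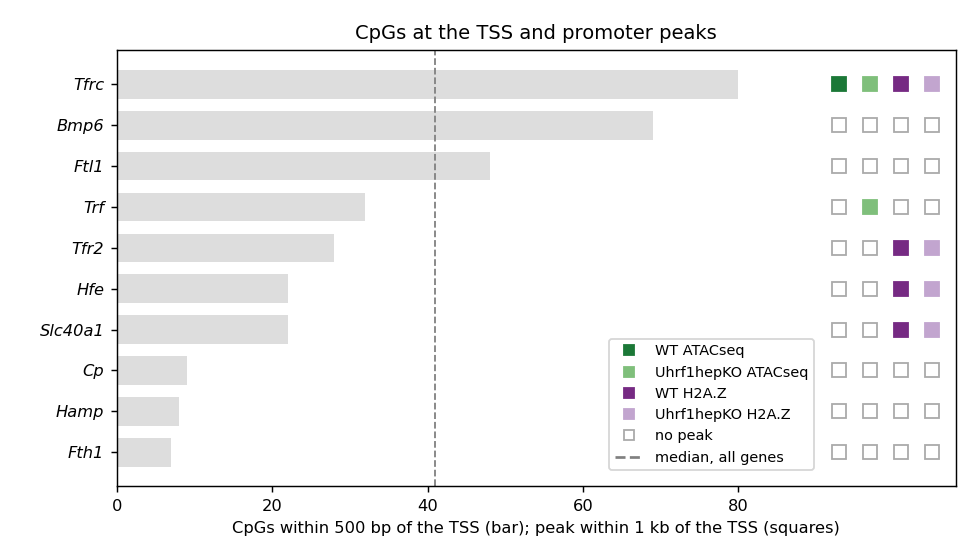
CpGs within 500 bp of the TSS (bars) for the 10 genes, with the median of all protein-coding genes (41) as a dashed line and squares filled where a list has a peak no more than 1 kb away. H2A.Z squares are filled at Tfrc and at 3 genes of 22 to 28 CpGs, and ATACseq squares at Tfrc and, in Uhrf1hepKO, Trf. Fth1 is placed by its annotated 5' end and not by its downstream start.

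The remaining letters searched in the 13 RefSeq promoter windows of 8 members were few. The antioxidant response core TGACNNNGC (12.4% of all windows) occurred at Hfe and Bmp6, and the E-box CACGTG (7.15%) at Bmp6. The TATA core TATAAA (13.6%) occurred at Cp (-27 and -25 bp from a RefSeq start), Fth1 (-124 bp) and Ftl1 (17 bp, after the start). GGCGCC occurred at Hamp and Tfrc, and TTCNNNGAA at Hamp alone. A match describes letters in the window and not a bound site.

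The wider iron network was read from 45 further genes in 5 groups. Of these, 15 had an ATACseq promoter peak in WT (26.4% of all protein-coding genes) and 14 in Uhrf1hepKO (24.1%). An H2A.Z one was present at 29 in WT (46.0%) and at 27 in Uhrf1hepKO (44.5%). The counts at the 10 genes above were 1, 2, 4 and 4 in the same order. The 45 genes were not matched to these 10 by CpG content, and its part in the difference was not tested. An ATACseq promoter peak was present in both genotypes at 11 genes, in WT only at 4 (6.16% of all protein-coding genes) and in Uhrf1hepKO only at 3 (3.84%). It was called in WT only at Smad4, the common partner SMAD, Hpx, which encodes the heme scavenger hemopexin, Lrp1, a receptor for hemopexin, and Pcbp1, an iron chaperone. It was called in Uhrf1hepKO only at Smad6 and Smad7, inhibitors of BMP signalling, and Alas1, the rate-limiting enzyme of heme synthesis in liver. Their folds ran from 3.70 (Lrp1) to 4.43 (Hpx) in WT and from 3.45 (Smad7) to 4.15 (Smad6) in Uhrf1hepKO. An H2A.Z promoter peak was present in both genotypes at 27 genes, in WT only at 2 (3.30% of all protein-coding genes), Flvcr1, a heme exporter, and Alas1, and in Uhrf1hepKO only at 0 (1.77%). None of these counts was tested. Of the 10 genes above, 1 (Trf) had an ATACseq promoter peak in Uhrf1hepKO only, and 0 had a promoter peak of either assay in WT only.

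By group, 11 of 15 genes of hepcidin control had an H2A.Z promoter peak in both genotypes, and 2 in WT and 3 in Uhrf1hepKO had an ATACseq one. In shares of all protein-coding genes, these compare with 46.0% and 44.5% for H2A.Z and 26.4% and 24.1% for ATACseq. Transport genes had 2 of 8 in every list. Genes of the iron regulatory proteins and storage had 5 of 7 with H2A.Z in both genotypes and 4 (WT) and 3 (Uhrf1hepKO) with ATACseq. Heme and haemoglobin clearance had 4 of 8 with either assay in WT, and 2 (ATACseq) and 3 (H2A.Z) in Uhrf1hepKO. Mitochondrial iron use had 7 of 7 with H2A.Z in WT and 6 in Uhrf1hepKO, and 3 and 4 with ATACseq. The highest ATACseq folds were at Ncoa4, the receptor for ferritin breakdown (7.24 in WT and 5.76 in Uhrf1hepKO), at Flvcr1 (6.43 in WT and 4.65 in Uhrf1hepKO) and at Hmox1, which degrades heme (5.56 and 5.28). Ireb2, which encodes an iron regulatory protein, had 5.53 in WT and 5.60 in Uhrf1hepKO. The highest H2A.Z folds were at the iron-sulfur scaffold gene Iscu (10.97 in WT and 9.30 in Uhrf1hepKO), Smad1 (10.24 and 12.55), Smad5 (9.26 and 8.60) and the metal transporter gene Slc39a8 (7.80 and 10.92).

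**Figure D5:**
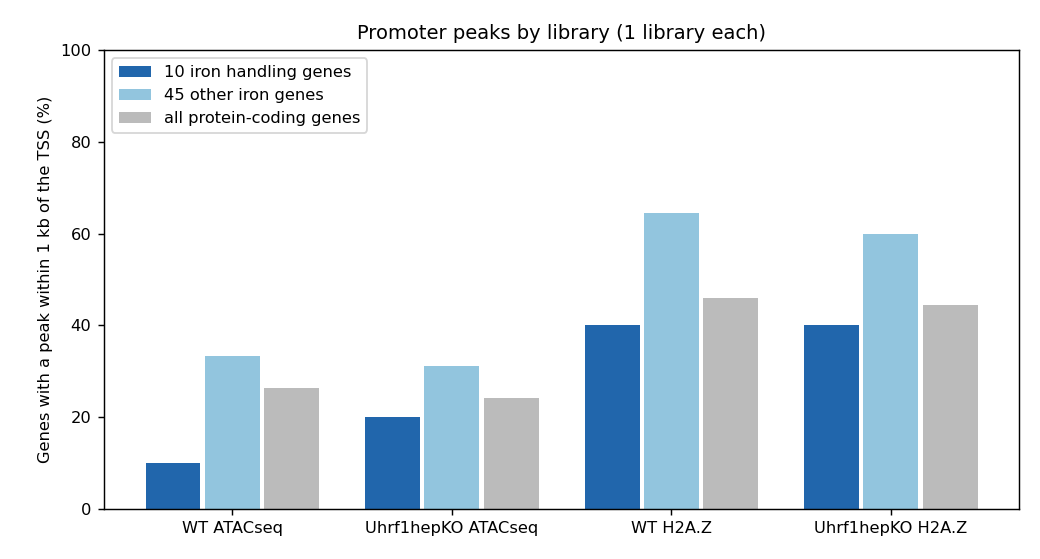
Share of genes that have a peak no more than 1 kb from the TSS (y axis, %) in each of the 4 libraries, for the 10 iron handling genes, the 45 other iron genes and all protein-coding genes. The 10 genes stand at 10%, 20%, 40% and 40%, below the 45 other genes in all 4 libraries, with 1 library per bar group and no test. With the TSS of any annotated transcript the 10 genes counted 2, 3, 5 and 5, and the 45 other genes were not recounted. The sets were not matched for CpG content.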

How the data were processed

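ATACseq and H2A.Z ChIPseq each gave 1 WT and 1 Uhrf1hepKO library. The authors used BWA-MEM against GRCm38.p4 and MACS2 on each library separately. The deposited lists give a display score, the fold over local background (a ratio) and the −log10 p-value and q-value, at the summit for H2A.Z and averaged over the region for ATACseq. The control library and the MACS2 version are not given in the sources used here.

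Only primary chromosomes were kept, and 0 peaks ran past a chromosome end of GRCm38.p6. The H2A.Z fold is (reads + 1)/(background + 1), which with the p-value gave whole summit reads for 100% of peaks (tolerance 0.001 in −log10 p). Intervals are 95%, exact Poisson or binomial, for counting error only. The overlap rules, the search for peaks in a region and the recovery of summit reads were tested on simulated data. Peaks were shared where they overlapped by at least 1 bp. Alternatives changed the window (5 kb), the promoter (500 bp or any transcript's TSS), the q-value (at most 0.01), the overlap and the measure. The 10 genes and all lists were chosen with earlier results of these data known. Every peak of the 10 genes is given. Other iron genes were named where a promoter peak was called in a single genotype or was among the 3 highest folds of a library. Promoter sequences are from RefSeq (GRCm38.p6), where 8 of the 10 genes matched, and Hjv is Hfe2 in the annotation. Recurrence of 32-base words was counted over both strands. Python 3.11.15 and scipy 1.17.1 were used.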

Additional observations from a re-analysis of the deposited data

How the results depend on the processing

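Of 39 alternative values, 38 stayed within 1.5 times the count, within the 95% Wilson interval of the share, or within 1 counting error of the ratio given above. The exception was the number of genes with a WT ATACseq peak within 1 kb of the TSS. It was 2 in place of 1 with the TSS of any annotated transcript, Fth1 being added by its downstream start. The same setting also added Fth1 in the other lists, within the limit. It gave 3 in place of 2 for Uhrf1hepKO ATACseq and 5 in place of 4 for H2A.Z in each genotype. The shared H2A.Z peaks were 12 of 18 in WT and 11 of 15 in Uhrf1hepKO with the rule used above. With a required overlap of 50% of both peaks they fell to 9 of 18 and 9 of 15, still within the limit. With a gap of up to 200 bp they were 13 of 18 and 12 of 15. The median log2 ratio at paired H2A.Z sites was -0.03 with the deposited fold. Its limit was the counting error of a single ratio, 0.41, and not the error of a median over 11 sites. No paired analysis was possible because each genotype and assay had 1 library, and for the same reason no library could be left out. Depth limits the H2A.Z ratios, and ATACseq depth is unknown.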
